A study of Mus musculus with 8 samples.

Results

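The Timp, thrombospondin and Ccn genes encode secreted proteins of the extracellular matrix, and 10 of them were examined in mouse embryonic stem cells after knockdown of Mkrn1: Timp1 to Timp4, Thbs1 to Thbs4, Ccn1 and Ccn2. They were chosen by name as the Timp family, the thrombospondins of this name and the founding Ccn genes, with the earlier results of these arrays known, and the probe set with the highest mean stood for each symbol. All 10 were found among 19937 genes with a measured value, each with 1 probe set, Ccn1 and Ccn2 under their older symbols Cyr61 and Ctgf. Because the genes were put together with the difference between the groups in view, their own values are given as a description and carry no test.

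The cells were R1, a male line of 129X1 x 129S1 background derived from the inner cell mass of the blastocyst. Each of the 8 arrays measured total RNA of a whole population grown on gelatin with LIF and serum, transfected transiently with 2 µg of a pLKO.1 plasmid and kept in 2 µg/mL puromycin for 4 days, so that only resistant cells were left at lysis on day 6. The 4 control arrays, named shGFP 1, 3, 5 and 7, carried a hairpin against GFP, and the 4 knockdown arrays, named shMKRN1 2, 4, 6 and 8, a hairpin against the makorin ubiquitin ligase gene Mkrn1. A single hairpin sequence was used against Mkrn1, so its other targets cannot be told apart from loss of Mkrn1. Its 21 bases are shown because they define the knockdown group.
shMKRN1: gcgagatgttgcttatgcttt
Whether the arrays of a group stand for separate transfections is not in the labels, nor is what the array numbers mean, and any p-value therefore reflects only the spread among these arrays, possibly technical.

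TIMP proteins are secreted inhibitors of matrix metalloproteinases, and TIMP3 is held in the matrix and also blocks the shedding enzyme ADAM17. Thrombospondins are large secreted glycoproteins that bind cell surface receptors such as CD47, CD36 and integrins, and thrombospondin 1 can release TGF-beta from its latent form. CCN1 and CCN2 are matricellular proteins, that is, matrix proteins that signal through integrins rather than build fibres, and their genes are widely used as readouts of YAP and TEAD transcription.

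Mkrn1 lay at 10.44 ± 0.069 on the log2 scale in the control arrays and 9.84 ± 0.036 in the knockdown arrays (SD, n = 4 each), a difference of -0.60 (SE 0.052; limma adjusted p = 0.000767; exact permutation p = 0.0286, the smallest that 70 assignments allow). Array medians lay between 7.14 and 7.24. On the leading principal component (37.6% of the variance) shGFP 7 (23.2) and shMKRN1 8 (7.46) stood apart from the other arrays of their groups, which lay between -3.45 and 6.20 and between -15.2 and -6.02. All 10 markers of embryonic stem cells were above the range of silent genes, taken as the level below which 95% of 1190 olfactory and vomeronasal receptor genes lay (6.50). Values are log2 probe set levels. Between genes they serve only for the range of silent genes, a cut at the median level and mean levels of lists. Otherwise levels of different genes are not set against each other.

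Among the protease inhibitors, Timp3 lay lower in every shMKRN1 array than in the lowest shGFP array. The log2 level was 10.12, 9.70, 9.54 and 9.40 in shGFP 1, 3, 5 and 7, and 9.25, 9.08, 8.89 and 8.85 in shMKRN1 2, 4, 6 and 8. The groups did not overlap, the highest array of each being shGFP 1 and shMKRN1 2. The log2 difference was -0.67 (SE 0.15), which left 62.8% of the control level with a 95% interval of 50.1% to 78.7%. It was -0.77 without shGFP 7 and -0.61 without shMKRN1 8, the arrays that stood apart, and -0.53 without shGFP 1. In bulk RNA, fewer cells of a kind and less transcript in each cell cannot be told apart.

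Timp1 and Timp2, the widely expressed soluble inhibitors, did not separate the groups. Timp1 lay at 9.20, 9.05, 9.03 and 8.85 in shGFP and at 9.27, 9.23, 9.08 and 9.10 in shMKRN1, a log2 difference of 0.14 (95% interval -0.04 to 0.32). Timp2 lay at 8.01, 7.86, 7.71 and 7.47 in shGFP and at 7.91, 7.58, 7.66 and 7.53 in shMKRN1, a log2 difference of -0.09 (-0.35 to 0.17). For both genes the arrays of the groups overlapped, and the highest array of each group was again shGFP 1 and shMKRN1 2. Timp4, an inhibitor of restricted tissue expression, lay at 6.38, 6.20, 6.28 and 6.44 in shGFP and at 6.08, 6.09, 5.95 and 6.07 in shMKRN1. Its groups did not overlap (log2 difference -0.28, SE 0.064), but both means lay within the range of silent genes, so the difference is not read as expression.

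**Figure D1:**
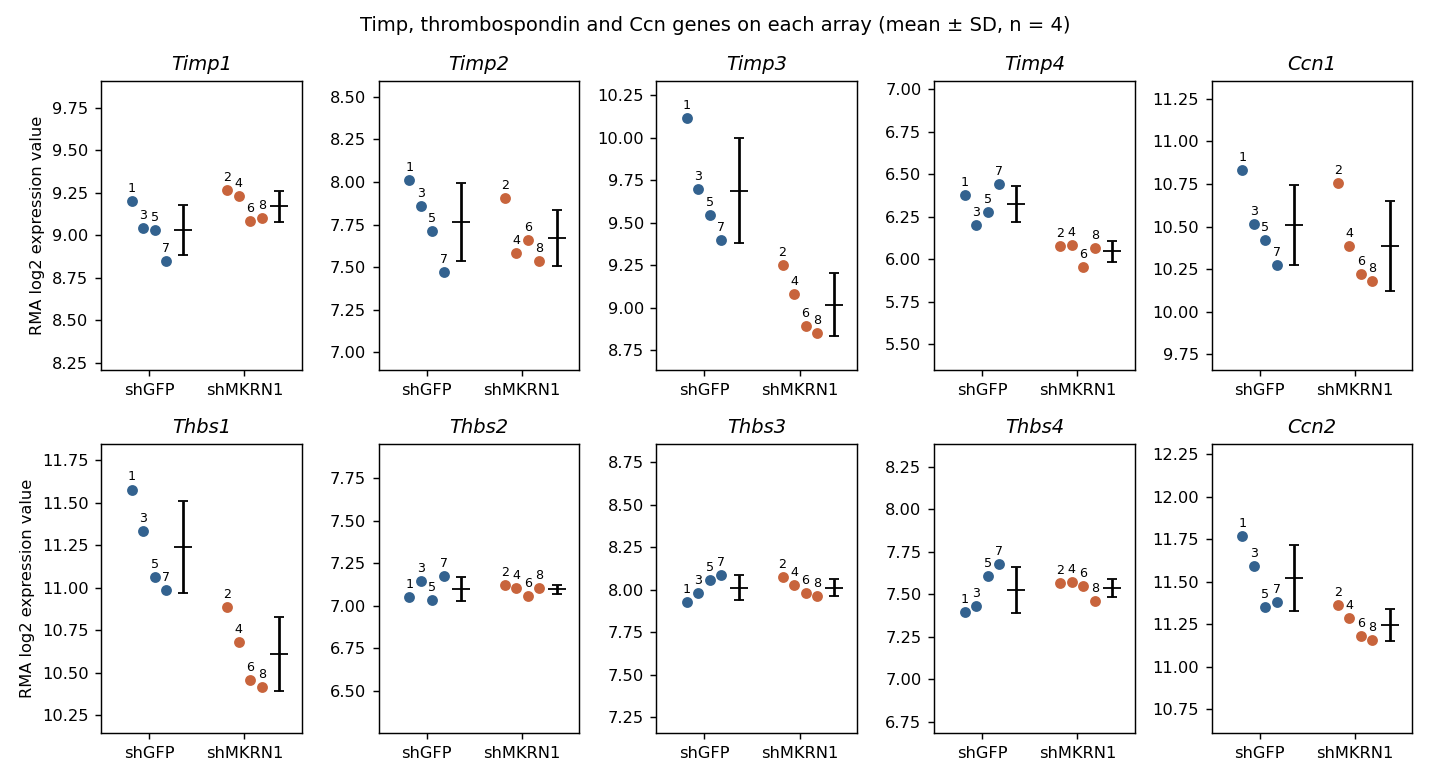
RMA log2 expression values (vertical axes, each spanning 1.7 log2 units) of the 10 genes on the 4 shGFP and 4 shMKRN1 arrays; points are arrays with their numbers, bars the mean ± SD. Timp3 and Thbs1 lie lower in all shMKRN1 arrays, Timp4 does so within the range of silent genes, and Thbs2, Thbs3 and Thbs4 overlap throughout.

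Of the thrombospondins, Thbs1 alone had groups that did not overlap. Thbs1 lay at 11.58, 11.33, 11.07 and 10.99 in shGFP 1, 3, 5 and 7, and at 10.89, 10.68, 10.46 and 10.42 in shMKRN1 2, 4, 6 and 8. The log2 difference was -0.63 (SE 0.14), which left 64.7% of the control level (95% interval 52.0% to 80.4%). It was -0.71 without shGFP 7, -0.56 without shMKRN1 8 and -0.52 without shGFP 1. The gap between the lowest shGFP and the highest shMKRN1 array was narrow, 0.10 on the log2 scale, against a range of 0.59 within shGFP.

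Thbs2, which encodes the other trimeric thrombospondin of this class, lay at 7.10 ± 0.070 in the control arrays and 7.10 ± 0.028 in the knockdown arrays (SD, n = 4 each). Its log2 difference was -0.004 with a 95% interval of -0.12 to 0.11. Thbs3 and Thbs4 encode pentameric thrombospondins. Thbs3 lay at 8.01 ± 0.072 and 8.01 ± 0.049, with a log2 difference of -0.002 (-0.12 to 0.12). Thbs4 lay at 7.53 ± 0.14 and 7.54 ± 0.052, with a log2 difference of 0.01 (-0.15 to 0.17). All 3 lay above the range of silent genes, and their groups overlapped.

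The Ccn genes lay between these patterns. Ccn2 lay at 11.77, 11.59, 11.35 and 11.38 in shGFP 1, 3, 5 and 7 and at 11.36, 11.29, 11.18 and 11.16 in shMKRN1 2, 4, 6 and 8. All 4 shMKRN1 arrays were below the shGFP mean and 3 of them below every shGFP array, shMKRN1 2 overlapping shGFP 5 by 0.01. The log2 difference was -0.28 (95% interval -0.49 to -0.07), or 82.5% of the control level. Ccn1 lay at 10.83, 10.52, 10.42 and 10.27 in shGFP and at 10.76, 10.38, 10.22 and 10.18 in shMKRN1, with wide overlap and a log2 difference of -0.13 (-0.44 to 0.19).

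In the limma fit across all genes, 3 of the 10 genes passed an adjusted p of 0.05, all lower (Timp3, Timp4 and Thbs1), where 0.838% of all genes passed as lower, 3.66% as higher and 4.49% in either direction. The same 3 were the genes with no overlap between groups, where 3.51% of all genes lay lower and 10.6% higher without overlap. Nothing is read from these counts, since the choice of the genes used this difference. The count was 0 when p-values were adjusted over every probe set, 2 (Timp3 and Thbs1) with a trended prior, with only genes above the median level tested or with quantile normalization, and 4 (with Ccn2) with array weights. It was 0 without shGFP 3 or without shMKRN1 4, 6 or 8, 1 (Timp3) without shGFP 1, and 2 (Timp3 and Thbs1) without shGFP 5, shGFP 7 or shMKRN1 2. The median log2 difference of the 10 genes was -0.11, and that of all 19937 genes 0.01.

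**Figure D2:**
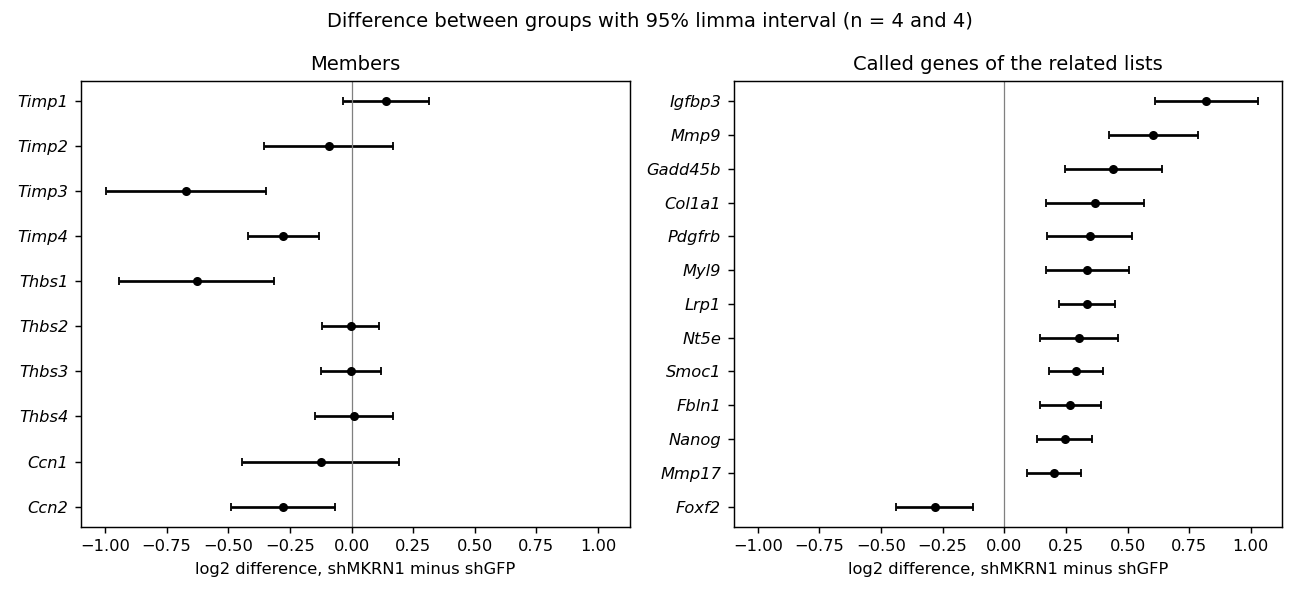
Log2 difference between shMKRN1 and shGFP (horizontal axes) with its 95% limma interval, for the 10 genes (left) and for the 13 genes of the related lists that passed the test (right). Timp3 and Thbs1 have the lowest values on the left, and of the 13 genes on the right 12 were higher, Igfbp3 at 0.82 and Mmp9 at 0.61 leading.

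The arrays within a group differed widely for some of these genes. The SD within groups was 0.26 for Timp3, 0.25 for Ccn1 and 0.25 for Thbs1, and 98.3%, 98.0% and 97.8% of all genes had a smaller one. That share was 93.2% for Timp2, 79.0% for Ccn2 and 62.3% for Timp1, and it lay between 12.0% and 49.6% for Timp4, Thbs2, Thbs3 and Thbs4. Timp1, Timp2, Timp3, Thbs1, Ccn1 and Ccn2 deviated together: shGFP 1 was the highest control array and shMKRN1 2 the highest knockdown array for all 6. The lowest control array was shGFP 7 for 5 of them (shGFP 5 for Ccn2), and the lowest knockdown array shMKRN1 8 for 5 (shMKRN1 6 for Timp1). Timp3, Thbs1 and Ccn1 were lower at each higher array number in both groups, as were 1.5% of all genes, while 0.301% were higher at each. Ccn2 had this order except for shGFP 5 and 7. The labels do not say whether the numbers mark an order of handling, and the part of that order in the levels, SDs and SEs was not tested. Against the shGFP array numbered just before it, each of the 4 shMKRN1 arrays was lower for Timp3, Thbs1, Ccn1 and Ccn2 (Ccn1 by -0.08, -0.13, -0.20 and -0.09) and higher for Timp1 (by 0.07, 0.19, 0.05 and 0.26). These 6 were grouped after their values were seen, and what follows describes them without a test.

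Taking each array's deviation from the mean of its own group, which leaves the difference between groups out, Timp3 and Thbs1 had a Pearson r of 0.973 over the 8 arrays (Spearman rho 0.976; r 0.954 without the 2 arrays farthest from the median of Timp3). Thbs1 had an r of 0.964 with Ccn2 and 0.960 with Ccn1. Over the 15 pairs of the 6 genes r lay between 0.838 and 0.973, and between 0.592 and 0.954 without the 2 farthest arrays of the first gene of each pair. The 4 other genes did not share the pattern over both groups together. Their r lay between -0.661 and 0.119 over the 24 pairs that join a gene of one set to a gene of the other. These values join groups that differed. Within the 4 shMKRN1 arrays alone, r with Timp3 was 0.54 for Timp4, 0.66 for Thbs2, 0.998 for Thbs3 and 0.71 for Thbs4. Within the 4 shGFP arrays alone it was -0.05, -0.50, -0.95 and -0.89 in the same order. The points share arrays and a common scaling, and 8 deviations around 2 means hold only 6 free values.

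**Figure D3:**
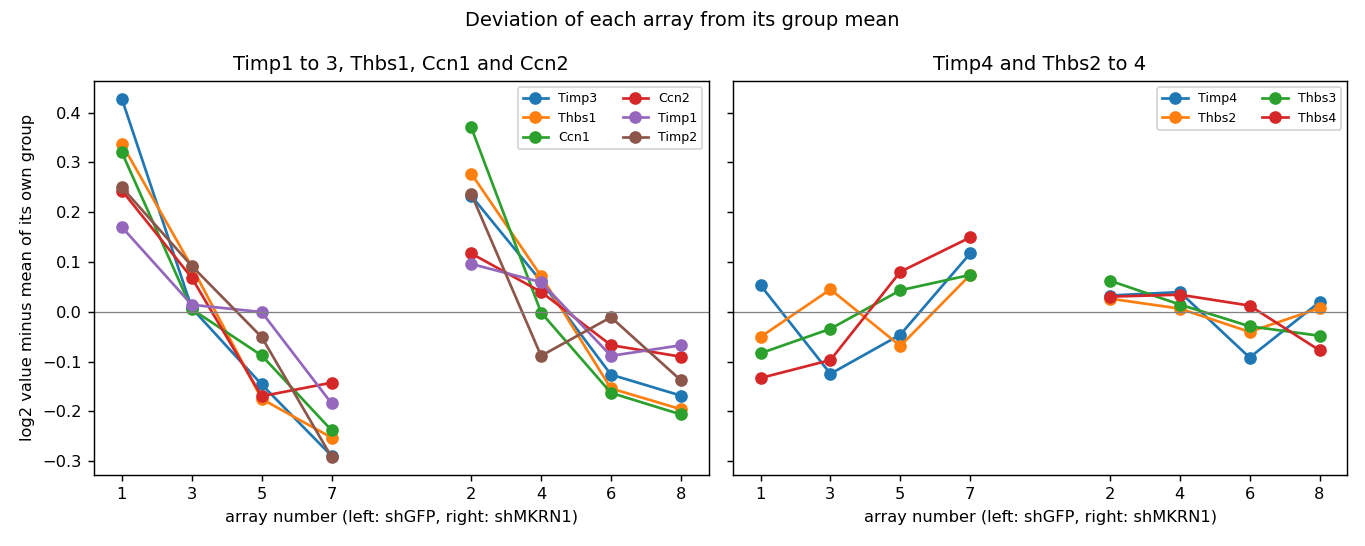
Log2 value minus the mean of its own group (vertical axis) for each array (horizontal axis, shGFP on the left and shMKRN1 on the right of each panel); lines join the arrays of a gene within a group in order of array number. In the left panel shGFP 1 and shMKRN1 2 are the highest of their groups for all 6 genes. In the right panel shGFP 7 is the highest control array for Timp4, Thbs2, Thbs3 and Thbs4. The highest knockdown array there is shMKRN1 2 for Thbs2 and Thbs3 and shMKRN1 4 for Timp4 and Thbs4.

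Because they varied together, ratios taken within an array had less spread than the single genes for some pairs. The pairs were chosen after the values were seen, and the changes and intervals are descriptions. The log2 ratio of Thbs1 to Ccn1, set to 0 at the shGFP mean, was 0.02, 0.09, -0.09 and -0.01 in shGFP 1, 3, 5 and 7, and -0.60, -0.43, -0.49 and -0.49 in shMKRN1 2, 4, 6 and 8. Its mean change was -0.50 (SE 0.050; 95% interval -0.62 to -0.38), and the groups did not overlap. The ratio of Timp3 to Timp1 changed by -0.81 (SE 0.10) and that of Timp3 to Timp2 by -0.58 (SE 0.084), with no overlap between groups. The ratio of Timp3 to Thbs1 lay between -0.08 and 0.09 in shGFP and between -0.09 and -0.01 in shMKRN1, a mean change of -0.04 (95% interval -0.14 to 0.06). The ratio of Ccn2 to Ccn1 changed by -0.15 (-0.39 to 0.09), with shMKRN1 2 at -0.41 and the other knockdown arrays between -0.11 and -0.04.

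**Figure D4:**
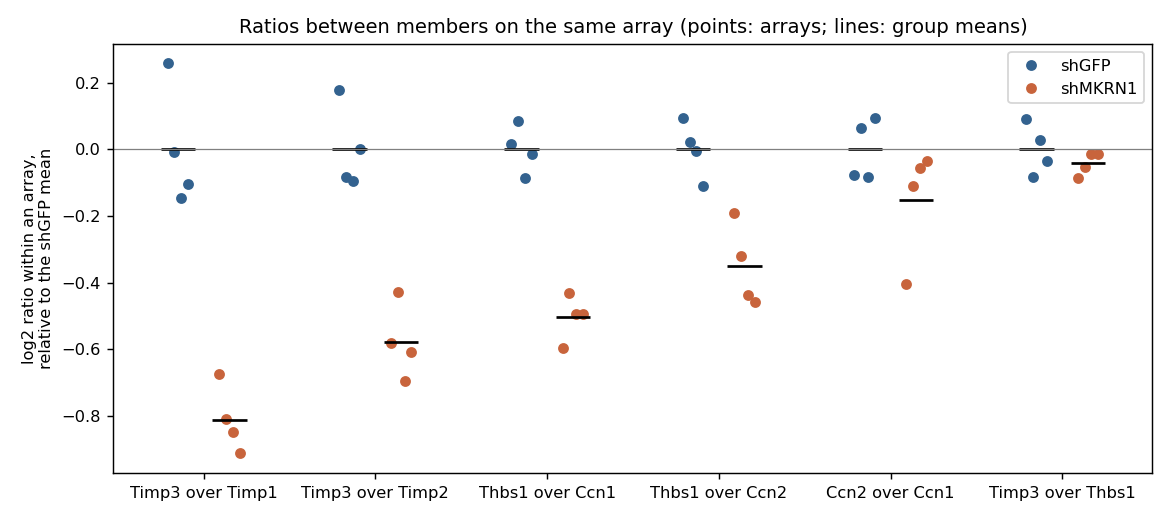
Log2 ratio of the named genes on the same array (vertical axis), set to 0 at the shGFP mean; points are the 4 arrays of each group and lines the group means. The groups are apart for Timp3 over Timp1, Timp3 over Timp2, Thbs1 over Ccn1 and Thbs1 over Ccn2, and overlap for Ccn2 over Ccn1 and Timp3 over Thbs1.

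Among 9707 genes above the median level, predicted genes passed over, the deviations most like those of Thbs1 belonged to Gata6 (r = 0.992), a transcription factor of primitive endoderm, Tinagl1 (0.991), a matrix protein gene, and Prkar1b (0.987), a regulatory subunit gene of protein kinase A. Ccn2 ranked 53 in that order and Timp3 ranked 30. Those most like Timp3 were Acpp (r = 0.997), a phosphatase gene, the imprinted Peg10 (0.994) and the keratin gene Krt18 (0.994). None of these 6 passed the limma test between groups, nor an unadjusted p of 0.05: Gata6 differed by 0.02 (SE 0.12; adjusted p = 0.949), Tinagl1 by 0.27 (SE 0.16; 0.396), Prkar1b by -0.08 (SE 0.088; 0.684), Acpp by -0.27 (SE 0.17; 0.464), Peg10 by -0.01 (SE 0.055; 0.976) and Krt18 by 0.10 (SE 0.18; 0.825).

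Most, but not all, markers of parietal endoderm, a matrix-secreting extra-embryonic cell type, varied with Thbs1 and Timp3 within groups. Of 15 such markers 12 had a positive r with Thbs1, with a median of 0.814, where the median over all genes was 0.00026. The median over all genes includes genes within the range of silent genes, above which all 15 markers lay by their mean over all arrays. No background matched for level was taken. Sparc (r = 0.972 with Thbs1), Col4a2 (0.956) and Gata6 were among them, while Thbd (-0.533), Sox7 (-0.197) and Pth1r (-0.494) were not. The 5 markers called defining below did not vary as a set. Gata6 (0.992) and Sox17 (0.651) were high, Gata4 (0.23) was low, and Sox7 and Thbd were negative. The mean log2 level of the 15 was 8.61, 8.57, 8.41 and 8.36 in shGFP 1, 3, 5 and 7 and 8.51, 8.39, 8.32 and 8.40 in shMKRN1 2, 4, 6 and 8. The groups overlapped. By the mean over all arrays, none of the 5 defining markers (Gata4, Gata6, Sox7, Sox17 and Thbd) lay within the range of silent genes, but Sox17 lay close to its limit, at 6.64 in shGFP and, just inside it, 6.49 in shMKRN1. In the comparison between groups none of the 15 passed the limma test (1 with an unadjusted p under 0.05). Their part in the values of Thbs1 and Timp3 was not tested. Markers of fibroblasts had a median r of -0.06 with Thbs1, and 7 of 15 had a positive r. Acta2 (0.956), Vim (0.940) and Pdgfra (0.836) were the highest, and Col1a2 (-0.542) was the lowest. The mean level of these 15 fibroblast markers lay between 7.33 and 7.47 in shGFP and between 7.39 and 7.54 in shMKRN1. Within the range of silent genes lay 4 of the 15, with 2 of the 6 defining markers, Lum and Prrx1, among them. The other defining markers lay above it: Col1a2 (7.77 in shGFP and 7.98 in shMKRN1), Col3a1 (7.15 and 7.18), Dcn (6.76 and 6.82) and Thy1 (8.25 and 8.39).

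The lists of YAP and TEAD targets, Hippo pathway and TEAD factors, TGF-beta pathway genes and SRF targets also varied with Thbs1 within groups, with median r of 0.706, 0.695, 0.665 and 0.676. Those of metalloproteinases and other matricellular genes did not, with medians of -0.15 and -0.23. Thrombospondin partners lay between, with a median of 0.414, and embryonic stem cell markers had a median of 0.086. These medians are descriptions over genes that share the same 8 arrays. For these lists, too, no background matched for level was taken.

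The sequence before the start site is shown for the 4 genes of this shared pattern whose promoter was in the RefSeq table (GRCm38.p6), which held 8 of the 10 genes and not Thbs1 or Ccn2. The 250 bases before the start run 5′ to 3′ on the strand of the gene, with motif matches in capitals. They lie at chrX:20869916-20870165 (+ strand), chr11:118355412-118355661 (- strand), chr10:86300162-86300411 (+ strand) and chr3:145649986-145650235 (- strand).
Timp1: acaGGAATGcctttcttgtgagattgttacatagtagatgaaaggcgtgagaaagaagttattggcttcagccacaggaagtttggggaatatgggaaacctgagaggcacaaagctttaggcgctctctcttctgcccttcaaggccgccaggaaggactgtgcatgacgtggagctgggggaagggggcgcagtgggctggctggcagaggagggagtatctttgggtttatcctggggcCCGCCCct
Timp2: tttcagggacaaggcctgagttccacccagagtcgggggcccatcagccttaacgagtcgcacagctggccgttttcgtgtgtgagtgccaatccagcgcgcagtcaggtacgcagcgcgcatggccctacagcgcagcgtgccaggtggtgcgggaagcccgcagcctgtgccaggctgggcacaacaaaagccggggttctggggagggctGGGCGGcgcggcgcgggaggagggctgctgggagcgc
Timp3: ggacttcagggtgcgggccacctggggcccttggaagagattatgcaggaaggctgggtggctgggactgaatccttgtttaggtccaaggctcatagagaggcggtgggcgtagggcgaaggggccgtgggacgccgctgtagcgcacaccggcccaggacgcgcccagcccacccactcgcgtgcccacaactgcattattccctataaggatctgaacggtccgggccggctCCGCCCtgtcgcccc
Ccn1: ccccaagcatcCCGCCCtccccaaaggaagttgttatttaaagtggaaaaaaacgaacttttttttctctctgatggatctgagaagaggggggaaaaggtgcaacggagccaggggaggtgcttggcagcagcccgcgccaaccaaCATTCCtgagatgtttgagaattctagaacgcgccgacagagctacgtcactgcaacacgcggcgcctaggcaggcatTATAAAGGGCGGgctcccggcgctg
The 6 motifs were searched on both strands in the 250 bases. The TEAD core GGAATG was found in Timp1 (leftmost base at position -247, counted back from the start) and Ccn1 (-103), and 12.6% of 27025 promoters held it. The GC box GGGCGG was found in Timp1 (-8), Timp2 (-37), Timp3 (-15) and Ccn1 (-239 and -19), against 32.9% of promoters. TATAAA was found in Ccn1 at -25, directly before a GC box, against 13% of promoters. The AP-1 motif TGANTCA (6.87% of promoters), the SMAD palindrome GTCTAGAC (0.174%) and the CArG box of SRF (1.4%) had no match in these 4 windows. Besides those shown, Thbs4 held GGAATG in 2 overlapping matches and GGGCGG in 3, Thbs3 held GGGCGG once and Thbs2 TATAAA once, while Timp4 held none of the 6.

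Genes known to act with these proteins were taken from 7 lists, and with 3 marker lists they covered 205 measured genes that are not among the 10. The lists were written with earlier results of these arrays known. In the limma fit 12 of the 205 (5.85%) passed as higher and 1 (0.488%) as lower, beside 3.66% and 0.838% of all genes. The number higher was 6 without shGFP 1 or shGFP 5 and 4 without shGFP 3 or shMKRN1 2, 4 or 6.

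Of 49 measured metalloproteinase genes of the Mmp, Adam and Adamts families, which include targets of TIMPs, 2 rose and none fell. Mmp9, the gelatinase B gene, lay at 7.01, 7.33, 7.27 and 7.25 in shGFP and at 7.96, 7.84, 7.80 and 7.69 in shMKRN1. Its groups did not overlap, and it rose 1.52-fold (log2 difference 0.61, SE 0.082; limma adjusted p = 0.00461), a call kept without each array in turn. Mmp17, a membrane-anchored member, rose by 0.20 (adjusted p = 0.0484), a call lost whichever array was left out (adjusted p up to 0.149). The list's median difference was -0.04, and 16 of the 49 lay within the range of silent genes. The TIMP3 target gene Adam17, chosen after its value was seen, differed by 0.07 (SE 0.054; adjusted p = 0.542).

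Of 21 genes of thrombospondin receptors and partners, Lrp1 rose and none fell (list median 0.05). Lrp1 encodes an endocytic receptor that takes up thrombospondin 1 and complexes of proteases with their inhibitors. It lay at 8.98, 9.03, 9.06 and 8.94 in shGFP and at 9.38, 9.36, 9.33 and 9.28 in shMKRN1, a 1.26-fold increase (0.34, SE 0.051; limma adjusted p = 0.00653) kept without each array. The receptor gene Cd47 differed by -0.06 (SE 0.083; adjusted p = 0.766), and Cd36 lay within the range of silent genes (4.17 and 4.21). Both were chosen after their values were seen.

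Of 23 other matricellular genes 2 rose and none fell (list median -0.06). Smoc1, a calcium-binding matricellular gene related to Sparc, lay at 9.15, 9.25, 9.26 and 9.22 in shGFP and at 9.54, 9.52, 9.52 and 9.46 in shMKRN1 (0.29, SE 0.049; limma adjusted p = 0.0118), kept without each array. Fbln1, a fibulin of elastic fibres and basement membranes, rose by 0.27 (adjusted p = 0.0273), kept without shGFP 7 alone (adjusted p up to 0.0986). The remaining thrombospondin gene Comp differed by -0.09 (SE 0.078; adjusted p = 0.616) and the Ccn genes Ccn3 to Ccn6 by -0.17 to 0.03, none past the threshold. The tenascin gene Tnc had the lowest value of the list, -0.54 (SE 0.16; adjusted p = 0.0867), not past the threshold. Comp, Ccn3 to Ccn6 and Tnc were chosen after their values were seen.

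Of 22 YAP and TEAD target genes 3 rose and 1 fell (list median -0.02). Igfbp3, a binding protein of insulin-like growth factors, lay at 9.71, 9.94, 10.20 and 9.99 in shGFP and at 10.88, 10.78, 10.70 and 10.76 in shMKRN1. It rose 1.76-fold (0.82, SE 0.094; limma adjusted p = 0.0021) without overlap and kept its call without each array. Gadd45b, a stress-response gene, rose by 0.44 (adjusted p = 0.0235; kept without shGFP 1, shGFP 7 or shMKRN1 8, up to 0.0755 otherwise), and Nt5e, a surface nucleotidase gene, by 0.30 (adjusted p = 0.0423; kept without shGFP 5 or shMKRN1 8, up to 0.121 otherwise). The forkhead gene Foxf2 fell by 0.28 (adjusted p = 0.049985), to a level of 6.35 within the range of silent genes, and kept its call without shGFP 7 alone (up to 0.13).

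None of 16 Hippo pathway and TEAD genes and none of 17 TGF-beta pathway genes passed the limma test (5 and 3 with an unadjusted p under 0.05; medians 0.06 and 0.04). The share of all genes with such a p is not given here, so nothing is read from unadjusted counts of any list. The coactivator gene Yap1 differed by 0.02 (SE 0.058; adjusted p = 0.892), chosen after its value was seen. Of 23 SRF and MRTF targets, Myl9, a myosin light chain gene, rose by 0.34 (SE 0.076; adjusted p = 0.0361; kept without shMKRN1 8 alone, up to 0.0979) and none fell (list median -0.05). In the marker lists Nanog rose by 0.25 (adjusted p = 0.0256; kept without shGFP 1, 5 or 7 or shMKRN1 8, up to 0.0974), Pdgfrb by 0.35 (0.0342; kept without shGFP 7 alone, up to 0.102) and Col1a1 by 0.37 (0.0486; kept without shGFP 7 alone, up to 0.131).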

How the data were processed

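The deposited table holds log2 expression values of 34760 probe sets on 8 arrays, which the authors produced with RMA according to the submitters' processing notes. The version and the genome build are not given in the sources used here. This method equalises the arrays, so a change in RNA per cell common to most genes is not visible, and changes of dim genes are understated. Names came from the platform annotation (21640 probe sets with 1 symbol, 1321 with several, 11799 unnamed); the probe set with the highest mean stood for each of 19937 genes, and Entrez numbers matched 19855 of them to RefSeq (GRCm38.p6). Groups came from the sample titles.

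Differences were fitted with limma 3.58.1 in R 4.3.3 (eBayes defaults, 6 residual degrees of freedom, two-sided, no filter or covariate), adjusted over all genes by Benjamini-Hochberg at 0.05. On simulated arrays of these 19937 genes the fit recovered 88% of genes changed 1.5-fold and all of those changed 2-fold. Unchanged genes made up 5.05% of its calls. Each gene was drawn independently, so deviations shared by genes on an array were left out. These shares are averages over genes drawn from all 19937. They do not hold for Timp3 and Thbs1, whose SEs (0.146 and 0.141) exceed the median SE of 0.071. The number of arrays limits the precision. The members, lists and rules were chosen with earlier results of these data known. Besides the members and Mkrn1, the text names up to 4 called genes a list with the smallest p and the 3 genes most like Timp3 and Thbs1 within groups; others are marked. Alternatives were 2 scalings, the mean of probe sets, a level filter, every probe set, array weights, a trended prior leaving out each array and, added after seeing the data, a block of adjacent array numbers.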

Additional observations from a re-analysis of the deposited data

Results flagged for a closer look

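The spread of 4 arrays was examined in 48 groups, the 2 groups of each of 24 genes (the 10 members, Mkrn1 and the 13 called genes of the lists), and in 2 of them a single array stood far from the others by Dixon's criterion on the gap to the nearest array, where chance gives about 1 in 20. Timp4 in shMKRN1 had a gap of 0.847 of its range, with shMKRN1 6 at 5.95 and the others between 6.07 and 6.09, all within the range of silent genes. Myl9 in shMKRN1 had a gap of 0.869, with shMKRN1 2 at 9.62 and the others between 9.32 and 9.36.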

How the results depend on the processing

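The groups share no array number, and the labels pair no arrays. A replicate block of adjacent numbers (1 with 2, 3 with 4, 5 with 6, 7 with 8) was added after seeing the data. Deviations of the paired arrays across all genes had r of 0.125, -0.047, 0.263 and 0.637, so not every pair deviated together. The SE fell with this block from 0.146 to 0.063 for Timp3, 0.141 to 0.049 for Thbs1 and 0.143 to 0.050 for Ccn1. It also fell for Timp2 (0.118 to 0.063), Ccn2 (0.094 to 0.056) and Timp1 (0.079 to 0.056). For Timp4 and Thbs2 it fell less (0.064 to 0.058 and 0.052 to 0.051). For Thbs3 (0.054 to 0.060) and Thbs4 (0.071 to 0.073) it rose. With that block 1059 genes were called higher and 387 lower, of the list genes 13 and 10, and of the members Timp3, Timp4, Thbs1 and Ccn2. The 95% interval became -0.24 to -0.01 for Ccn1 and 0.01 to 0.27 for Timp1. The members were chosen with the group difference known, and the block pairs arrays that no label pairs. Nothing is read from these calls and intervals of the members. Under quantile normalization and median centring the difference of Timp3 was -0.70 and -0.65 and that of Thbs1 -0.64 and -0.60; with each array left out Timp3 ranged from -0.77 to -0.53, Thbs1 from -0.72 to -0.52 and Mkrn1 from -0.63 to -0.57. Ccn2 ranged from -0.33 to -0.20 and Timp4 from -0.32 to -0.24. The smaller differences moved by over 1.5 times, Ccn1 from -0.25 to -0.02, Timp2 from -0.19 to -0.01 and Timp1 from 0.08 to 0.20, and those of Thbs2, Thbs3 and Thbs4 changed sign around 0. No member's difference moved by more than its SD within groups. Of all genes, 729 were called higher and 167 lower. The counts were 321 and 57 adjusted over every probe set, 1933 and 824 with array weights, 1228 and 320 with a trended prior and 1285 and 310 with only genes above the median level; quantile normalization gave 290 lower, and leaving out an array 256 to 650 higher and 52 to 230 lower. Of the list genes, 12 were higher and 1 lower. The lower count was 0 over every probe set, with the mean of probe sets and with median centring, 16 with array weights, 2 with a trended prior and 3 each with the level filter and quantile normalization; over every probe set 4 were higher, and leaving out an array gave 4 to 9 higher and 0 to 5 lower. Fewer arrays or more features tested account for part of the smaller counts by construction; the cause of the other shifts was not tested.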

Other observations

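In the RefSeq gene table (GRCm38.p6), 3 of the 4 Timp genes lie inside a synapsin gene, which encodes a protein of synaptic vesicles: Timp1 in Syn1, Timp3 in Syn3 and Timp4 in Syn2. The host genes did not pass the limma test. Syn3 lay at 7.20 ± 0.022 in the control arrays and 7.22 ± 0.12 in the knockdown arrays (SD, n = 4 each), a log2 difference of 0.02 (SE 0.063; limma adjusted p = 0.892) beside -0.67 for Timp3. Syn1 differed by -0.06 (SE 0.054; adjusted p = 0.65) and Syn2 by 0.06 (SE 0.066; adjusted p = 0.674).

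The metaxin genes, which encode proteins of the outer mitochondrial membrane, neighbour thrombospondin genes: Mtx1 lies next to Thbs3 and Mtx3 next to Thbs4. Mtx1 differed by 0.12 (SE 0.047; limma adjusted p = 0.194) and Mtx3 by 0.14 (SE 0.055; 0.196). Next to Thbs1, Rasgrp1 differed by 0.15 (SE 0.049; 0.115), and Fsip1 by 0.17 within the range of silent genes. Of 22 measured genes that overlap or adjoin the 10, Lgals3bp beside Timp2, a gene of a secreted galectin-binding glycoprotein, passed the test (0.27, SE 0.063; limma adjusted p = 0.0431), 1 of 22 beside 4.49% of all genes. These neighbours were chosen by position.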
